A study of Mus musculus with 13 samples.

Results

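A set of 9 genes that encode transcription factors of hepatocyte identity and maturation were followed across mouse livers of 5 groups: Hnf4a, Foxa1, Foxa2, Foxa3, Cebpa, Cebpb, Onecut1, Prox1 and Nr5a2. Each was read from the 1 probe set annotated to its symbol alone, so 9 of the 19938 genes with such a probe set are described. All 9 passed the filter on dim genes and were among the 14953 genes tested.

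These proteins form a cross-regulating network in the liver. The FOXA factors open chromatin at liver enhancers, HNF4A and ONECUT1 (also called HNF6) maintain the differentiated hepatocyte, and C/EBPα and C/EBPβ divide the work between metabolic genes and the acute-phase and regenerative response. Retinoblastoma protein, the product of Rb1, binds E2F factors and restrains entry into S phase, and it has been described as a partner of C/EBP factors in other cell types.

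Liver RNA came from 14-day-old mice, with apparently 1 Affymetrix array for each mouse, and 4 of the 5 groups had received diethylnitrosamine (DEN). DEN is a liver carcinogen that becomes a DNA-alkylating agent inside hepatocytes, and it was injected once at 20 mg/kg with livers taken after 24 h. The groups were N750F with DEN (5 arrays), knockout-labelled with DEN (2), heterozygous with DEN (2), wild type with DEN (2) and untreated wild type, which received saline (2). N750F is a point mutation in the part of the retinoblastoma protein that contacts partners with an LXCXE motif, and its label names neither the second allele nor Cre. Knockout-labelled livers were homozygous for floxed Rb1 with Cre under the hepatocyte-active albumin promoter. Which liver cells lost the gene, and how completely, cannot be read from these data. Heterozygous livers had 1 floxed allele with that Cre, although another tag of the same labels reads LOH, and wild type livers were floxed without Cre. Every untreated liver was wild type, so a genotype difference present before DEN cannot be told apart from a different response to DEN. The labels do not name the litter of any mouse, and the p-values therefore measure the spread between these arrays.

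The arrays were run in 2 batches, named in the raw array names, with 9 and 4 arrays. Batch 1 held 3 N750F arrays, both knockout-labelled and both untreated arrays, and 1 heterozygous and 1 wild type DEN array, and batch 2 held the other 4. The sexes read from Y-linked genes were 4 females and 1 male for N750F, 2 males each for knockout-labelled and heterozygous, 2 females for wild type DEN and 1 of each for untreated. Rb1 itself had a log2 level of 7.82 to 8.43 in N750F, 7.92 and 6.57 in knockout-labelled, 7.92 and 7.62 in heterozygous, 8.04 and 8.01 in wild type DEN and 7.27 and 7.15 in untreated livers. The position of its probes relative to the floxed exon was not known, and this level therefore checks little. Knockout-labelled array 2 carried skeletal muscle transcripts, with a mean log2 level of 8.77 over 11 muscle genes, against 5.71 in knockout-labelled array 1 and at most 5.90 in the other groups. Hepatocyte markers (14 measured) were high in every array, at mean levels of 11.58 to 12.04, and none of the 14 passed the test in any of the 10 comparisons.

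The promoters of the 3 factors with a called difference are shown first, since the text returns to these genes. Each is the 250 bases before a RefSeq transcription start on GRCm38.p6, read 5′ to 3′ on the gene's strand, and capitals mark any match, on either strand, to 1 of 7 motifs. Those were the E2F core TTTNGCGC, the CCAAT box, the TATA box TATAAA, the GC box GGGCGG, the cyclic AMP response core TGACG, the FOX core TGTTTAC and the ONECUT core ATCAAT.
Onecut1, chr9:74861671-74861920, plus strand: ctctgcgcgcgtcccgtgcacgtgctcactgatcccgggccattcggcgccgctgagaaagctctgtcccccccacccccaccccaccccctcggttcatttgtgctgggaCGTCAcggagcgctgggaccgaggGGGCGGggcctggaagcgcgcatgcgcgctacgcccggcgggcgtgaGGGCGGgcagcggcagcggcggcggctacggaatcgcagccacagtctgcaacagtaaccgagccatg
Cebpb, chr2:167688665-167688914, plus strand: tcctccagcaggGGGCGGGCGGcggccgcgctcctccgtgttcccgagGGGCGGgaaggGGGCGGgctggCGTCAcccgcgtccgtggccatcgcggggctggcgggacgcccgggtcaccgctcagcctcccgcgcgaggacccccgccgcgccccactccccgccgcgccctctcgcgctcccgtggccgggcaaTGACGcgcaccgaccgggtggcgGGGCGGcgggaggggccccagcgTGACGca
Foxa2, chr2:148046970-148047219, minus strand: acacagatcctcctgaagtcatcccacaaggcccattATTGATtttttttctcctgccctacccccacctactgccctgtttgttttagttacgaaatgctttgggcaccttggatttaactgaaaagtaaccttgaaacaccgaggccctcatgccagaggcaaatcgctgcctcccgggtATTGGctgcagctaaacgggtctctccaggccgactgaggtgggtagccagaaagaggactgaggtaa
The Cebpb window had 81.6% G and C and held 5 GC boxes, 2 of which overlap, and 3 TGACG matches. The Onecut1 window held 2 GC boxes and 1 TGACG match. The outermost of the 3 Foxa2 windows held 1 CCAAT box and 1 ONECUT core, the motif bound by the ONECUT family. The other Foxa2 windows, not shown, held GC boxes and, in the innermost, a TATA box, but no ONECUT core. Among all 32851 windows of the table, GC boxes were in 32.7%, CCAAT in 33.8%, TGACG in 17.8%, TATAAA in 12.4%, ATCAAT in 6.72%, TGTTTAC in 3.17% and TTTNGCGC in 1.13%. A match describes the letters of the window and is not evidence of a bound site.

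Levels are log2 of the quantile-normalized intensity plus 16, and 1 unit is a doubling. Differences were taken from 1 limma model over the 13 arrays with a term for batch, and a difference was called when its adjusted p over all genes tested was under 0.05. A difference in bulk liver RNA may come from fewer cells of a type or from less RNA per cell, and these cannot be told apart.

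Of 90 member differences (9 genes in 10 comparisons), 5 were called, and all 5 were lower levels. Onecut1 was lower in N750F livers than in both wild type groups, Cebpb was lower in N750F than in wild type DEN livers, and Foxa2 was lower in wild type DEN and in N750F livers than in untreated livers. An F test for any difference among the 5 groups called Onecut1 (adjusted p = 0.0141) and Cebpb (adjusted p = 0.0258), against 2.89% of all genes, and Foxa2 had an adjusted p of 0.0596. The other 6 members had adjusted F-test p-values of 0.293 to 0.847.

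**Figure D1:**
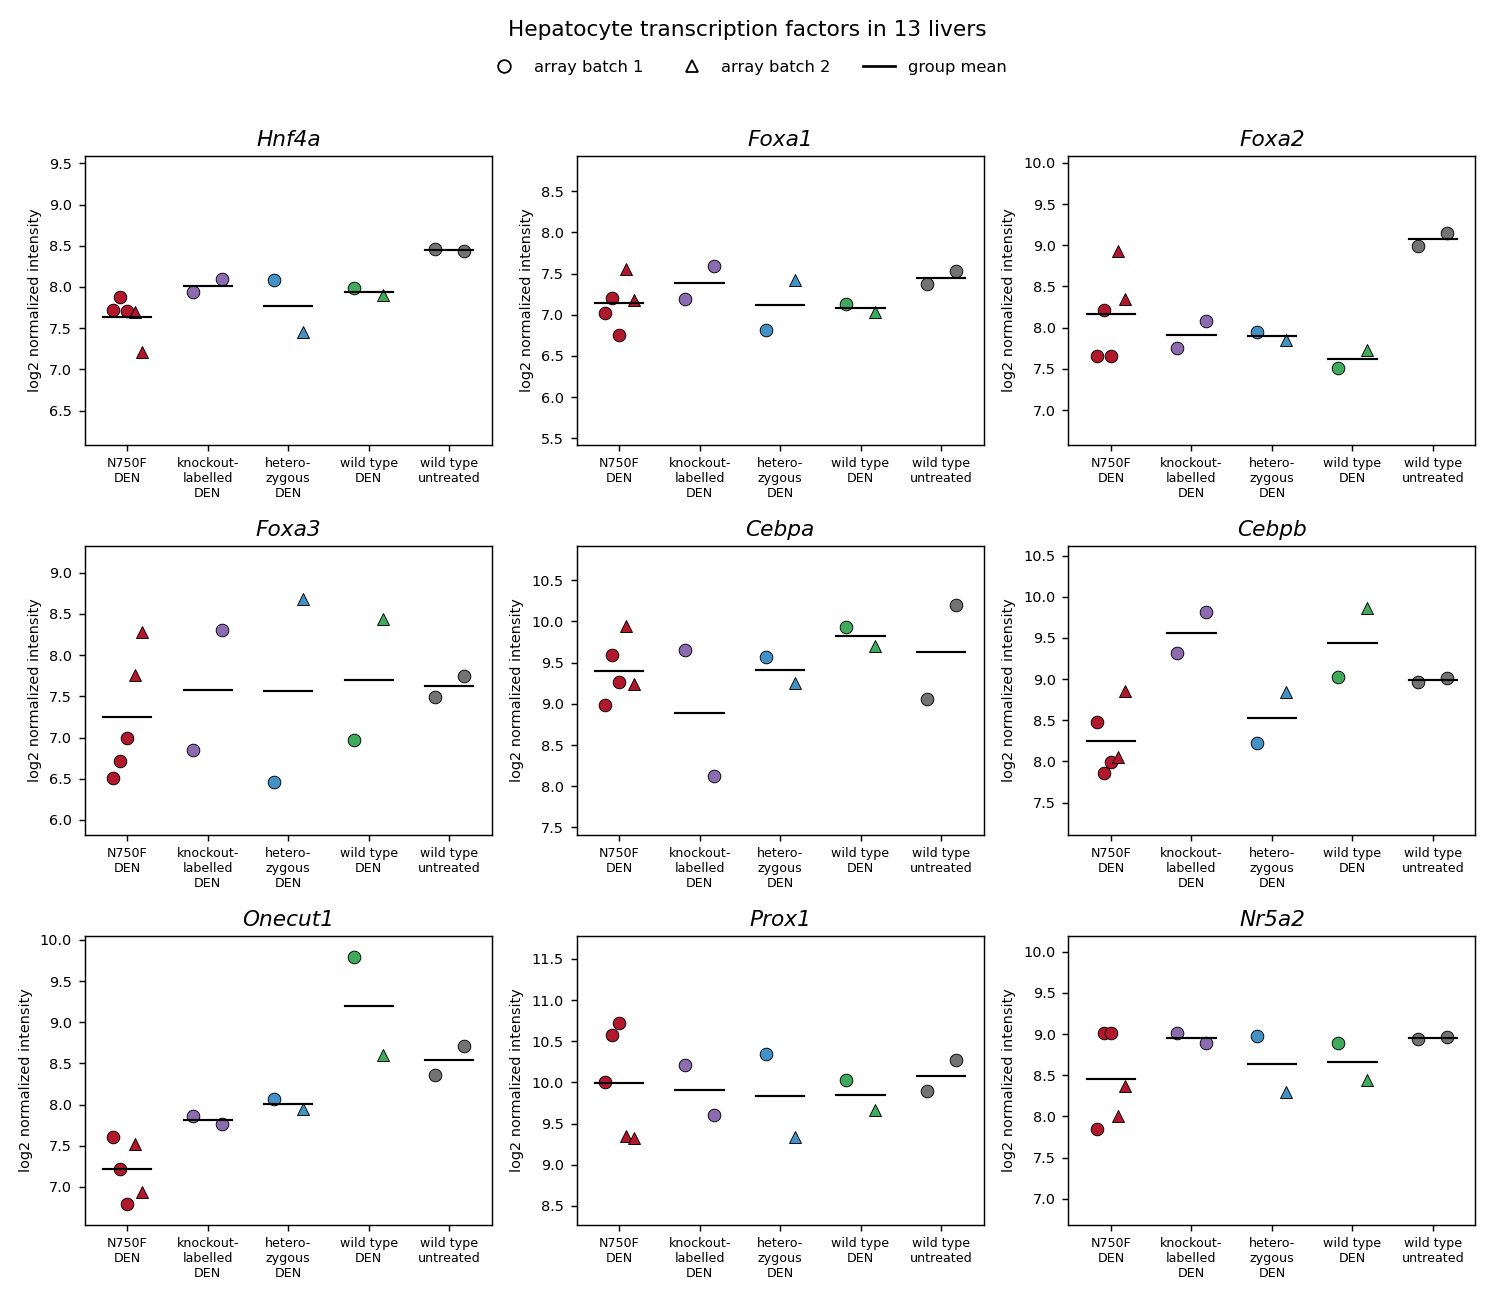
Levels of the 9 factors in 13 livers (log2 normalized intensity, vertical axes of equal span, linear on the log2 scale). Each point is 1 array, circles are batch 1, triangles are batch 2, and bars are group means. The 5 N750F points of Onecut1 lie below all 8 other arrays, and the 11 DEN points of Foxa2 and of Hnf4a lie below both untreated arrays.

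In N750F against wild type DEN livers, 2 of the 9 members were called lower and 0 higher, where 1.42% of all genes were called and 0.288% were called lower. The members' median change was -0.30, against -0.01 for all genes. In N750F against untreated livers, 2 of 9 were called lower and 0 higher, where 6.21% of all genes were called and 2.34% were called lower. Here 8 of the 9 changes were below 0 and the median was -0.67, against -0.06 for all genes.

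For wild type DEN against untreated livers, 1 of 9 was called lower, where 0.689% of genes were called and 0.388% were called lower. The median change of the members was -0.04, close to the -0.02 of all genes. No member was called for heterozygous DEN against untreated (1.4% of all genes called), although 8 of 9 changes were below 0 with a median of -0.49 and 2 members had an unadjusted p under 0.05. Knockout-labelled livers against untreated likewise gave 0 calls (0.0869% of all genes called), 8 of 9 changes below 0, a median of -0.18 and 1 member with an unadjusted p under 0.05. Of all 14953 genes, 2336 had an unadjusted p under 0.05 for heterozygous and 1417 for knockout-labelled livers. These 4 comparisons share both untreated arrays, so they are not separate observations.

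Among the remaining genotype comparisons after DEN, limma called 0 members for N750F against heterozygous (1.64% of genes called), N750F against knockout-labelled (0%), knockout-labelled against wild type (0.0468%), knockout-labelled against heterozygous (0.301%) and heterozygous against wild type (0.00669%). Members with an unadjusted p under 0.05 numbered 1, 2, 1, 1 and 2 in that order. Among all 14953 genes, those with such a p numbered 1668, 1823, 1278, 1439 and 1029 in the same order. A missed threshold does not show that levels were alike. For the 9 members the distance of the 95% bounds from a difference ran from 0.44 to 0.85 log2 units for N750F against wild type DEN and from 0.55 to 1.06 for wild type DEN against untreated.

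**Figure D2:**
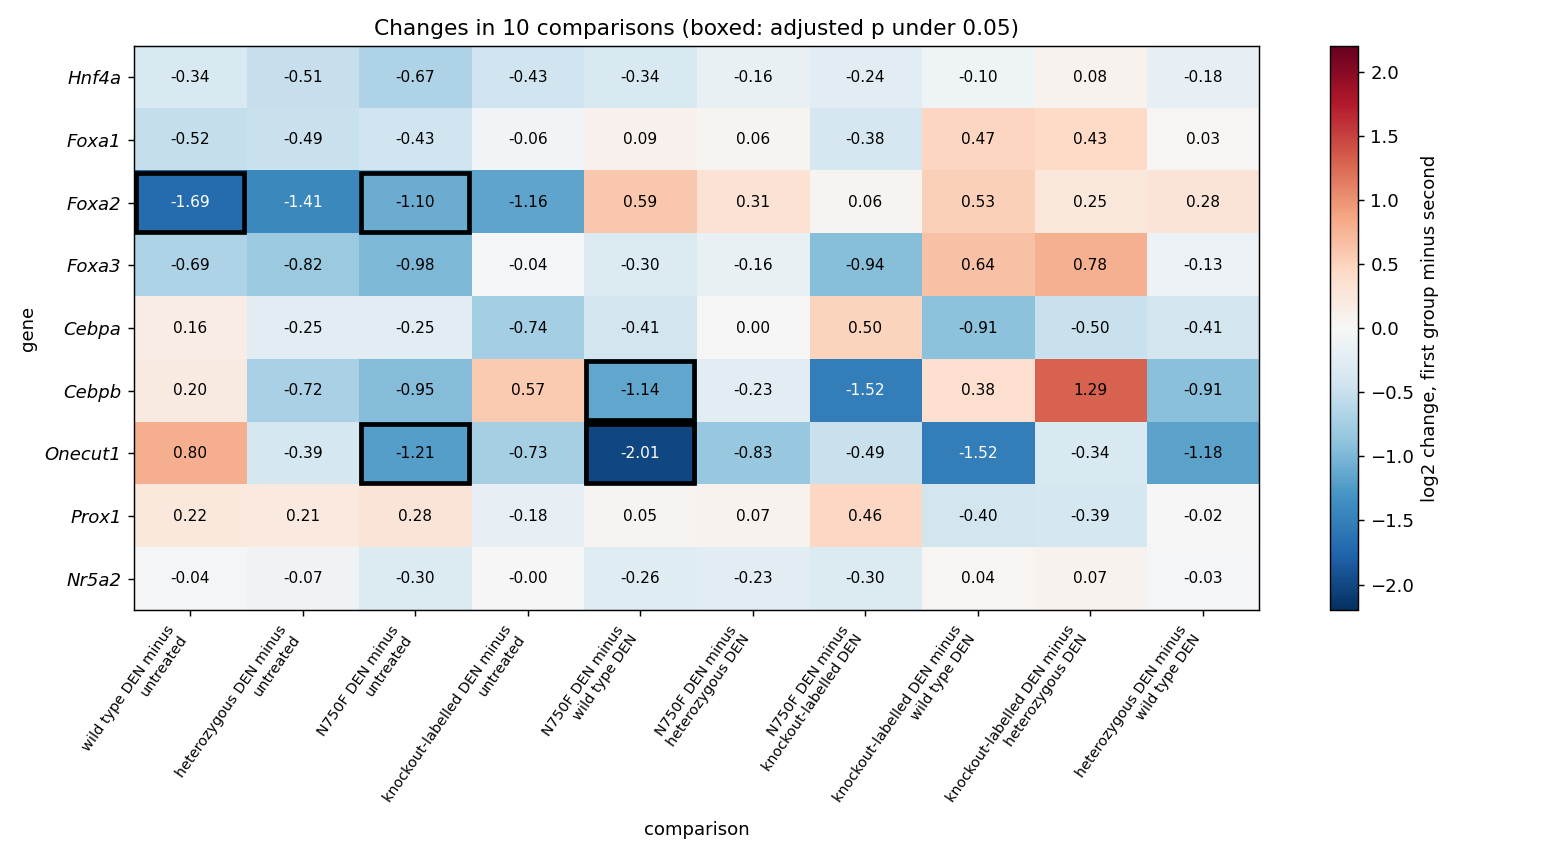
Log2 changes of the 9 factors in 10 comparisons, first group minus second, blue for lower and red for higher in the first group. Boxed cells had an adjusted p under 0.05, and the 5 boxes are Foxa2 (-1.69 and -1.10), Cebpb (-1.14) and Onecut1 (-1.21 and -2.01). Several of the comparisons share arrays.

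Onecut1, a factor with a cut domain and a homeodomain that acts in hepatocytes, bile duct precursors and pancreas, had the largest called difference of the members. Its log2 level was 7.61, 7.21, 6.80, 7.52 and 6.94 in the 5 N750F livers. It was 7.86 and 7.77 in knockout-labelled, 8.07 and 7.95 in heterozygous, 9.79 and 8.60 in wild type DEN and 8.37 and 8.71 in untreated livers. All 5 N750F arrays thus lay below all 8 others, a pattern that 0.314% of all genes showed and that no other member showed.

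Onecut1 in N750F was 4.02-fold lower than in wild type DEN livers (log2 change -2.01 ± 0.29 SE, 95% interval -2.64 to -1.38, limma adjusted p = 0.00688). The difference was -2.58 within batch 1 and -1.37 within batch 2, and it was -2.08 between the 4 N750F females and the 2 wild type females. Wild type DEN array 3, at 9.79, was the highest of all 13 arrays. Without that array the change was -1.40 and the adjusted p was 0.0515. Against untreated livers the N750F level was 2.32-fold lower (-1.21 ± 0.31, adjusted p = 0.0365). That call was lost in 7 of 13 omissions of 1 array, among them either untreated array (adjusted p 0.238 and 0.209), and the change stayed between -1.39 and -1.01.

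For Onecut1 the order of group means was N750F, knockout-labelled, heterozygous, untreated, wild type DEN, and among these neighbours only untreated and wild type DEN overlapped. Taken 1 pair at a time, 7.46% of all genes had N750F below knockout-labelled arrays. The share was 14.1% for knockout-labelled below heterozygous and 26.6% for heterozygous below untreated. Heterozygous and knockout-labelled livers nevertheless had no called difference in Onecut1. The change was -1.52 (95% interval -2.32 to -0.73, adjusted p = 0.213) for knockout-labelled and -1.18 (-1.93 to -0.43, adjusted p = 0.665) for heterozygous against wild type DEN, so both intervals lay below 0 before adjustment. Knockout-labelled and heterozygous arrays were all male and wild type DEN arrays all female, so sex and genotype cannot be told apart here. N750F differed from heterozygous by -0.83 (adjusted p = 0.272) and from knockout-labelled by -0.49 (adjusted p = 0.546). Wild type DEN differed from untreated by 0.80 (0.00 to 1.59, adjusted p = 0.362), and this value was 0.08 without wild type DEN array 3.

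Onecut1 is also a gene of bile duct and pancreatic cells. Of 9 bile duct markers 6 were measured, and their mean log2 level was 5.99 to 6.24 in N750F and 6.03 and 6.14 in wild type DEN livers. These ranges overlap, and 3 of the 6, Krt19, Sox9 and Cftr, were below the filter level of 5.94. None of the other 3 was called in that comparison. The 7 measured markers of pancreatic acinar cells averaged 6.48 to 6.81 in N750F and 6.69 and 6.84 in wild type DEN livers, and these ranges overlap too.

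Cebpb encodes C/EBPβ, which drives acute-phase genes and is needed for normal liver regeneration in mice. Its level was 8.48, 7.86, 8.00, 8.05 and 8.85 in N750F livers. Knockout-labelled livers had 9.31 and 9.81, heterozygous 8.22 and 8.84, wild type DEN 9.03 and 9.86 and untreated 8.96 and 9.01. Every N750F array therefore lay below every knockout-labelled, wild type DEN and untreated array, while the N750F and heterozygous arrays overlapped. Counted separately for each comparison, N750F lay below knockout-labelled arrays for 7.46% of all genes. The share was 6.9% against wild type DEN and 14.5% against untreated arrays. The share of genes with all of these separations together was not counted.

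In N750F livers Cebpb was 2.21-fold lower than in wild type DEN livers (log2 change -1.14 ± 0.26 SE, 95% interval -1.71 to -0.58, limma adjusted p = 0.0483). The difference was -0.91 within batch 1, -1.41 within batch 2 and -1.25 among females. The call sat at the threshold. It was lost when 10 of the 13 arrays were left out 1 at a time, with adjusted p up to 0.744 without wild type DEN array 4, and changes between -1.36 and -0.95.

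The change of Cebpb in N750F was larger against knockout-labelled livers, at -1.52 (-2.11 to -0.93), but that comparison had 0 calls over all genes and the adjusted p was 0.157. Leaving out knockout-labelled array 1 gave -1.77 with an adjusted p of 0.0176, and leaving out the array with muscle transcripts gave -1.27 with an adjusted p of 0.908. Against untreated livers N750F differed by -0.95 (-1.53 to -0.36, adjusted p = 0.0569). Knockout-labelled livers exceeded heterozygous livers by 1.29 (0.58 to 2.00, adjusted p = 0.164).

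Myeloid cells also express Cebpb. The 12 macrophage markers averaged 7.62 to 8.13 in N750F livers, against 7.00 in both wild type DEN livers. Of the 12, 2 were called higher in N750F, where 1.42% of all genes were called. In untreated livers the markers averaged 8.37 and 7.94, and in knockout-labelled livers 7.57 and 8.04. Whether these cells have a part in the Cebpb difference was not tested.

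Cebpa encodes C/EBPα, which maintains metabolic genes and opposes division of hepatocytes. Its level was 8.98, 9.59, 9.27, 9.94 and 9.24 in N750F livers, 9.66 and 8.12 in knockout-labelled, 9.56 and 9.25 in heterozygous, 9.94 and 9.70 in wild type DEN and 9.06 and 10.20 in untreated livers. The lowest value belonged to the array with muscle transcripts, and neighbouring groups in the order of means all overlapped. No difference was called (N750F against wild type DEN -0.41, 95% interval -1.25 to 0.44). Its residual SD of 0.59 was the widest of the 9 members, against a median of 0.30 over all tested genes.

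Foxa1, Foxa2 and Foxa3 encode the winged-helix pioneer factors that bind closed chromatin at liver enhancers. Foxa2 had 7.66, 8.22, 7.65, 8.93 and 8.35 in N750F livers, 7.75 and 8.08 in knockout-labelled, 7.94 and 7.85 in heterozygous, 7.51 and 7.73 in wild type DEN and 8.995 and 9.15 in untreated livers. All 11 DEN arrays were below both untreated arrays, as they were for Hnf4a among the members and for 4.77% of all genes. N750F array 4, at 8.93, came close to the untreated level.

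Foxa2 fell by 1.69 on the log2 scale in wild type DEN against untreated livers (SE 0.33, 95% interval -2.40 to -0.97, limma adjusted p = 0.0377), a 3.22-fold lower level. In N750F livers it was 2.14-fold lower than in untreated livers (-1.10 ± 0.28, -1.69 to -0.51, adjusted p = 0.0352). Heterozygous livers differed from untreated by -1.41 (-2.12 to -0.70, adjusted p = 0.0538) and knockout-labelled livers by -1.16 (-1.83 to -0.49, adjusted p = 0.218). All 4 intervals lay below 0, and all 4 comparisons rest on the same 2 untreated arrays.

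Within batch 1 these Foxa2 differences were -1.57 for wild type DEN, -1.13 for heterozygous, -1.23 for N750F and -1.16 for knockout-labelled livers. Among females the wild type DEN value was -1.53 with 2 against 1 array. The wild type call was lost when either untreated array was left out (adjusted p 0.262 and 0.115), as was the N750F call (0.261 and 0.173). Neutrophil markers moved in the same direction as Foxa2, with a mean over 9 genes of 5.32 and 5.35 in wild type DEN livers against 6.27 and 5.99 in untreated livers, and 4 of the 9 were below the filter level. In the same comparison macrophage markers (3 of 12 called lower, median change -1.21) and proliferation genes (4 of 11, median -1.57) were lower. There, 0.388% of all genes were called lower. Fetal liver genes were lower too (3 of 8 called lower, median -1.64). Stellate (-0.43) and endothelial (-0.36) medians were below 0 without a call, and the median of the hepatocyte markers was -0.06. Whether any of these has a part in the Foxa2 difference was not tested.

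Between genotypes after DEN no Foxa2 difference was called. N750F exceeded wild type DEN by 0.59 (0.02 to 1.15, adjusted p = 0.325), and the groups overlapped.

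Foxa1 varied least of the 3 FOXA genes. It was 6.76 to 7.56 in N750F livers, 7.20 and 7.59 in knockout-labelled, 6.82 and 7.42 in heterozygous, 7.13 and 7.04 in wild type DEN and 7.37 and 7.53 in untreated livers. Each pair of neighbouring groups overlapped, and its changes ran from -0.52 to 0.47 with no call.

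Foxa3 followed the array batch. Within batch 1 it was 6.51, 6.72 and 6.99 in N750F, 6.85 and 8.31 in knockout-labelled, 6.46 in heterozygous, 6.97 in wild type DEN and 7.49 and 7.75 in untreated livers. Batch 2 gave 7.75 and 8.29 in N750F, 8.68 in heterozygous and 8.44 in wild type DEN livers. The batch term was 1.54 (adjusted p = 0.00408), so a mean over both batches says little about a group. With batch in the model, N750F differed from untreated by -0.98 (-1.75 to -0.22, adjusted p = 0.117) and from knockout-labelled by -0.94 (-1.71 to -0.18, adjusted p = 0.338). The change against knockout-labelled livers was -0.21 without knockout-labelled array 2, the array with muscle transcripts. It was -1.67 without array 1, which leaves only the array with muscle transcripts.

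Hnf4a encodes a nuclear receptor that controls a broad set of hepatocyte genes. It was 7.72, 7.88, 7.70, 7.69 and 7.21 in N750F livers, 7.93 and 8.09 in knockout-labelled, 8.08 and 7.45 in heterozygous, 7.99 and 7.90 in wild type DEN and 8.46 and 8.43 in untreated livers. The untreated arrays stood above all 11 DEN arrays, and neighbouring DEN groups overlapped in the order of their means. All 5 N750F arrays lay below both wild type DEN arrays and both knockout-labelled arrays, with changes of -0.34 (adjusted p = 0.469) and -0.24 (adjusted p = 0.692). The same separation was seen for 6.9% and 7.46% of all genes in these comparisons. No difference was called. The nearest was N750F against untreated, at -0.67 (-1.13 to -0.21, adjusted p = 0.0792), and wild type DEN differed from untreated by -0.34 (-0.89 to 0.22, adjusted p = 0.628).

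Nr5a2 encodes LRH-1, a nuclear receptor of bile acid and cholesterol metabolism. Its level was 7.85, 9.02, 9.01, 8.01 and 8.37 in N750F livers, 9.02 and 8.89 in knockout-labelled, 8.97 and 8.30 in heterozygous, 8.89 and 8.44 in wild type DEN and 8.94 and 8.96 in untreated livers. All neighbouring groups overlapped, and the 10 changes ran from -0.30 to 0.07. The 5 N750F livers alone spanned more than the means of the 5 groups did.

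Prox1 encodes a homeodomain factor of hepatocytes that is also required in lymphatic endothelium. It was 10.00, 10.58, 10.72, 9.35 and 9.32 in N750F livers, 10.20 and 9.60 in knockout-labelled, 10.34 and 9.33 in heterozygous, 10.03 and 9.67 in wild type DEN and 9.90 and 10.27 in untreated livers. As with Foxa3, the batches differed, here by -0.91 in batch 2 (adjusted p = 0.0132). Its changes ran from -0.40 to 0.46 with no call and no group apart from its neighbour. The 11 endothelial and lymphatic markers averaged 7.09 to 7.74 in N750F livers, against 6.89 and 7.25 in wild type DEN livers.

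Over all 9 members, by raw means that keep the batch difference, the untreated group was highest for 5 genes, wild type DEN for 3 and knockout-labelled for 1. N750F had the lowest raw mean for 5 genes, wild type DEN for 2, and knockout-labelled and heterozygous for 1 each. The places of Foxa3 and Prox1 depend on batch. With batch in the model, Foxa3 in wild type DEN, counted as highest, was below untreated (-0.69). Prox1, counted as highest in untreated, was higher in N750F than in untreated livers (0.28). Such counts were not made for all genes.

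**Figure D3:**
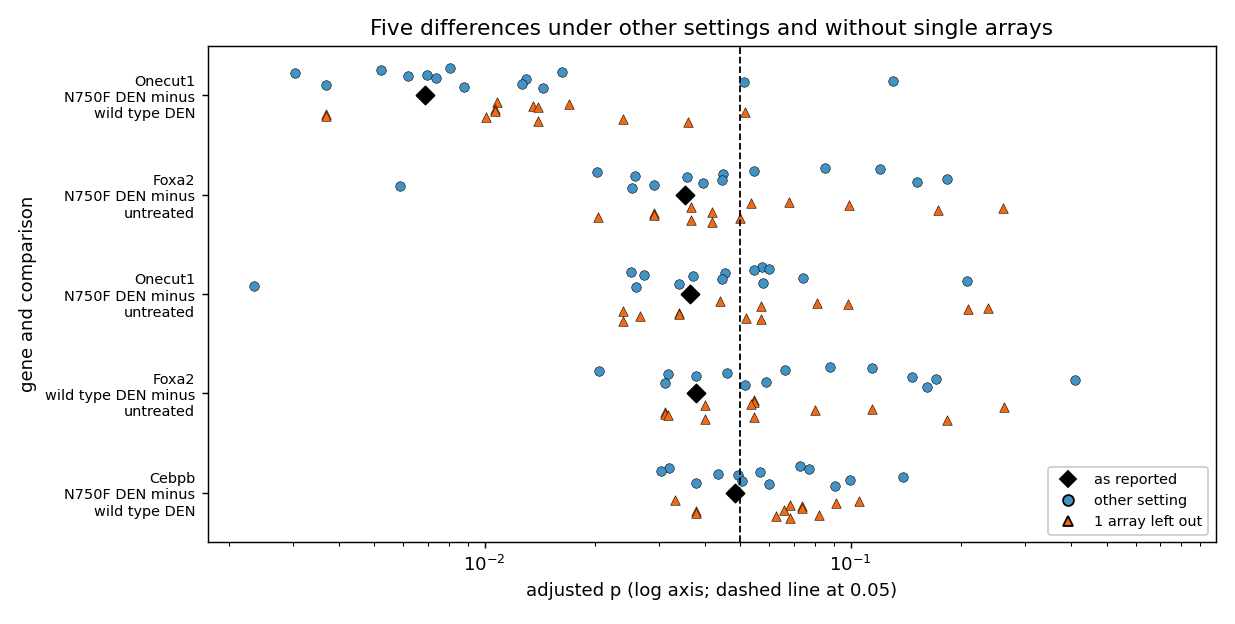
Adjusted p (log axis, dashed line at 0.05) of the 5 called differences, as reported (diamonds), under other processing settings (circles) and with 1 array left out (triangles). Onecut1 in N750F against wild type DEN stayed below 0.05 in 12 of 14 settings and 12 of 13 omissions, while Cebpb in the same comparison did so in 5 of 14 and 3 of 13.

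Few of the other liver transcription factors were called. Of 43 listed, 40 were measured and 35 tested. In N750F against untreated livers 4 of the 35 were called lower and 0 higher, where 2.34% of all genes were called lower. The median change of the 35 was -0.32, against -0.06 for all genes. They were Creb3l3 (-0.99), which acts in fasting metabolism, the stress factor Atf5 (-2.06), Nr1i3 (-1.42), which encodes the xenobiotic receptor CAR, and Tef (-1.24), a clock-controlled factor. With 1 of the 13 arrays left out in turn, these calls held in 9, 9, 8 and 2 omissions in that order. In N750F against wild type DEN livers 0 of 35 were called (1.42% of all genes) and the median was -0.22. Wild type DEN against untreated also gave 0 of 35, with a median of -0.18.

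Creb3l3 (-1.55) and Atf5 (-2.87) were called lower in heterozygous against untreated livers as well, and Nr1i3 (-1.51) in N750F against heterozygous livers. Nr1i3 was 7.57 to 8.70 in N750F livers, 9.43 and 9.63 in heterozygous and 8.92 and 9.69 in untreated livers. The Atf5 groups overlapped in both comparisons, with 7.71 to 10.79 in N750F, 7.60 and 9.10 in heterozygous and 8.85 and 11.10 in untreated livers. Without the batch term the Atf5 change against untreated livers was -1.07 in N750F and -1.63 in heterozygous livers. Leaving out either untreated array moved the Atf5 change in N750F to -3.18 or to -0.94, and it was not called without untreated array 2 (adjusted p = 0.347).

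Genes commonly given as targets of these factors were mostly not called. The target lists share genes such as Alb and Pck1. In N750F against wild type DEN livers, 0 of 20 HNF4A targets, 0 of 9 FOXA targets, 1 of 16 C/EBP targets and 0 of 7 NR5A2 targets were called, with medians of 0.03, 0.14, -0.08 and 0.04, where 1.42% of all genes were called and the median of all genes was -0.01. Albumin changed by -0.00 in that comparison (not called). The C/EBP target called was Orm1, which encodes an acute-phase glycoprotein, at -2.10 ± 0.34 (adjusted p = 0.00904). It had 5.11 to 6.43 in N750F livers, against 7.62 and 7.78 in wild type DEN livers. Its N750F mean of 5.54 lay below the filter level of 5.94, so Orm1 was tested only because other groups were higher. Orm1 has near-identical neighbours in the mouse, so its probes may also read those copies.

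Orm1 also differed where Cebpb had no call. In heterozygous livers it was 8.66 and 8.89, against 4.97 and 5.86 in untreated livers (3.05 ± 0.42, adjusted p = 0.00451). N750F livers were lower than heterozygous livers by a log2 change of -3.18 and knockout-labelled livers by -3.19. The Orm1 means of N750F (5.54), knockout-labelled (5.28) and untreated livers (5.42) all lay below the filter level of 5.94. Each of these comparisons thus sets a group below that level against the heterozygous livers.

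In N750F against untreated livers, the called targets were F7 (-1.34), a clotting factor gene on the HNF4A list, Hp (-0.93) and Saa4 (-0.98), plasma protein genes on the C/EBP list, and Abcg8 (-1.08), a sterol transporter gene on the NR5A2 list. These were 1 of 20, 2 of 16 and 1 of 7, and 0 of 9 FOXA targets were called, where 6.21% of all genes were called and 2.34% called lower. The medians of these 4 lists lay between -0.14 and -0.00, against -0.06 for all genes. The calls of F7, Hp, Saa4 and Abcg8 held in 10, 9, 3 and 10 of 13 omissions in that order, and each was lost when either untreated array was left out. F7 was 8.13 to 8.83 in N750F livers, against 9.75 and 9.99 in untreated livers. Afp, the fetal albumin-like protein on the FOXA list, was called in N750F against heterozygous livers (2.87), at 7.68 to 10.57 in N750F and 6.18 and 6.89 in heterozygous livers, a call that held in 5 of 13 omissions.

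**Figure D4:**
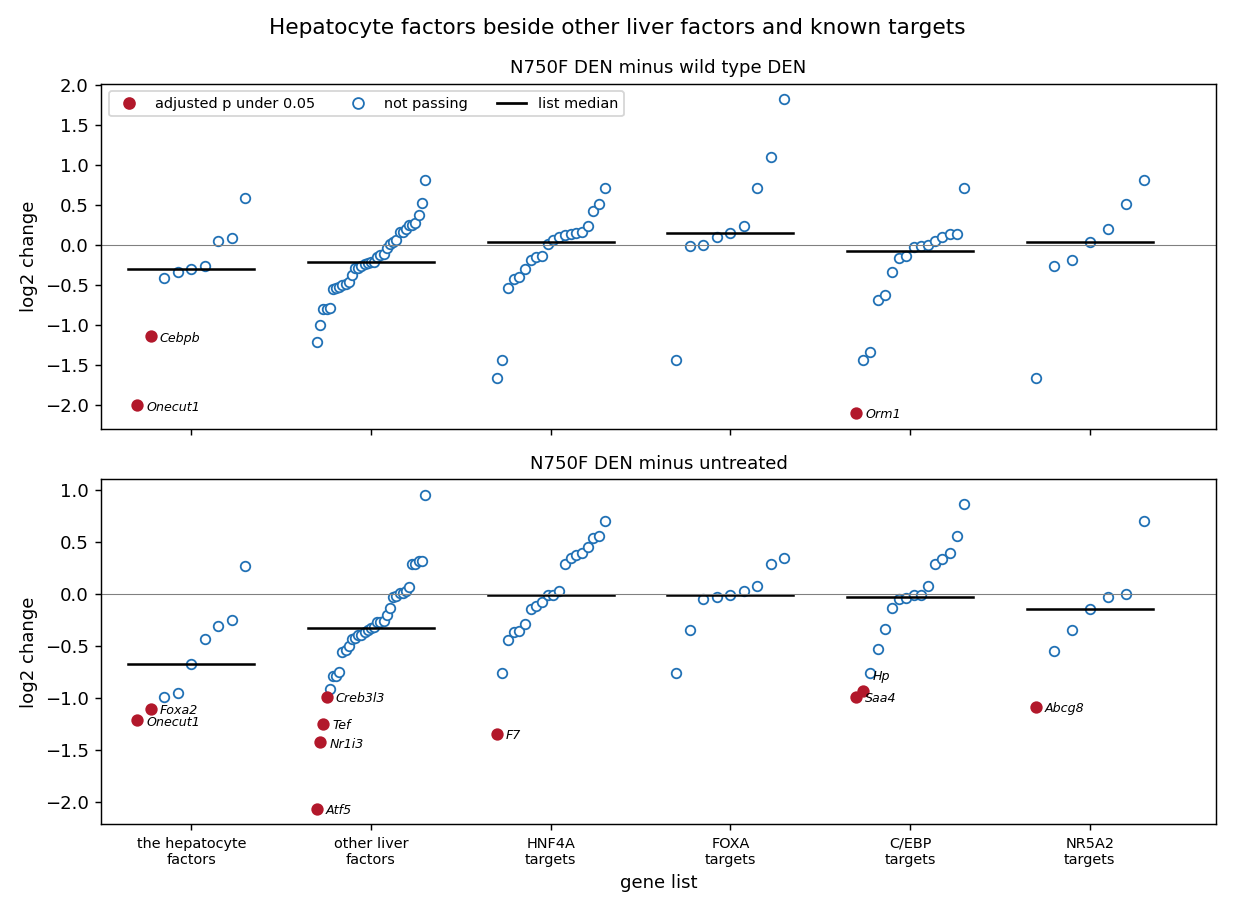
Log2 changes of the 9 factors, other liver factors and 4 target lists in N750F DEN against wild type DEN livers (upper panel) and against untreated livers (lower panel). Each point is a tested gene, filled red where the adjusted p was under 0.05, and bars are list medians. Onecut1 and Cebpb lie at -2.01 and -1.14 in the upper panel, while the list medians there lie between -0.30 and 0.14.

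Genes of cell division differed between the groups beside these factors. The mean of 11 proliferation genes was 8.27 to 8.76 in N750F livers, 8.91 and 7.03 in knockout-labelled, 5.88 and 5.98 in heterozygous, 6.35 and 6.29 in wild type DEN and 7.78 and 7.66 in untreated livers. All 11 were called higher in N750F than in wild type DEN livers, the comparison in which Onecut1 and Cebpb were lower. Of all 14953 genes, 169 were called higher there. Cdk1, Bub1, Aurkb, Cdc20, Birc5 and Cenpf had wild type DEN means of 5.30 to 5.85, below the filter level of 5.94. These genes were thus tested only because other groups were higher, so the count of 11 overstates the difference as evidence. Heterozygous livers had the lowest proliferation level and an intermediate Onecut1 level. Whether division has a part in either difference was not tested.

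Across the 13 arrays, with batch removed, the genes most like Onecut1 were Abhd17b (Pearson r = 0.90, Spearman rho = 0.87), Pcnx2 (0.87 and 0.87) and Slc1a2 (0.86 and 0.84). For Cebpb they were Rab2a (0.96 and 0.95), Mrps34 (0.94 and 0.87) and Kcnj3 (0.94 and 0.93). Foxa2 was followed most closely by Diaph2 (0.96 and 0.88), the neutrophil gene S100a8 (0.93 and 0.88) and Echdc2 (0.93 and 0.86). The arrays share groups and normalization, so these values describe likeness only. The top genes for Hnf4a were Abhd14b, Zscan2 and Wdr83 (r of 0.91 to 0.94), for Foxa1 Sbno2, Olfr1120 and Ap1s1 (0.89 to 0.91) and for Foxa3 Dcakd, Exosc3 and Gabbr1 (0.91 to 0.94). Those for Cebpa were Zfp759, Cyp2c70 and Cdh6 (0.87 to 0.90), for Prox1 Txnl4a, Hax1 and Ddx39a (0.91 to 0.93) and for Nr5a2 Usp19, Tbc1d10c and Timm10 (0.89 to 0.93). For Nr5a2 the Spearman values were lower at 0.53 to 0.65.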

How the data were processed

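Total RNA of frozen mouse liver was amplified for 1-colour Affymetrix hybridisation, per the labels' protocols. The authors deposited linear intensity values of 35556 probe sets for each of 13 arrays. Median deposited intensity was 76.9 to 82.99 in batch 1 and 48.2 to 73.3 in batch 2. The submitters' processing notes name RMA and Affymetrix Expression Console 1.1 without a role for either, and the build is not given in the sources used here.

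From these values, quantile normalization and log2 of the intensity plus 16 were computed with limma 3.58.1 in R 4.3.3; the offset understates changes of dim genes. GEO's array annotation gave 1 symbol for 21789 probe sets and several for 1621, while 12146 were not listed. The brightest single-symbol probe set stood for a gene. Genes below the 25th percentile of mean level (5.94) were left out, 14953 remained, and lmFit and eBayes were run with 5 groups and batch, leaving 7 residual degrees of freedom. Every adjusted p is from this limma model, by Benjamini-Hochberg within a comparison. The number of arrays limits the precision. Script results were tested on simulated data.

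The members and the gene lists were chosen with earlier results of these data known. No single-symbol probe set matched 22 of 240 list entries. Named genes were the 9 members, the 3 genes most like each, and up to 4 called genes of smallest p per list. Of the fetal liver list, only Afp is described, since it is also a FOXA target. Further marker lists were red cell, stellate, pancreatic acinar and lymphocyte genes. Replicate numbers do not pair the arrays: the labels name no shared litter, each comparison shares at most 2 numbers, and correlations of same-numbered arrays with batch kept ran from -0.13 to 0.45 over 12 pairs. Promoters of all 9 members were matched by symbol.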

Additional observations from a re-analysis of the deposited data

Results flagged for a closer look

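Hnf4a in N750F array 5, at a log2 level of 7.21, stood apart from the other 4 N750F arrays at 7.69 to 7.88. The gap was 0.721 of the group's whole range, past Dixon's limit of 0.71 for 5 arrays. The levels checked keep the batch difference, and array 5 was in batch 2. The limma batch term of Hnf4a was -0.34 in batch 2 (adjusted p = 0.179). The other batch 2 arrays were 7.69 (N750F array 4), 7.45 (heterozygous) and 7.90 (wild type DEN). The check was not repeated with batch removed. The 9 members were checked in this group alone, since the other groups had 2 arrays, and chance gives such a gap in about 1 of 20 groups. Without array 5 the change of Hnf4a in N750F against untreated livers was -0.64 (adjusted p = 0.101), so no call changed.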

How the results depend on the processing

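The 5 called differences kept their direction under every setting tried and with any single array left out, as did Onecut1 in all 10 comparisons. Of all 90 member differences, 42 changed direction at least once, and none was called with the changed direction. The largest was Cebpa in knockout-labelled against untreated livers, at -0.74, which became 0.03 without knockout-labelled array 2. Without the batch term 9 changed, among them Foxa3 in wild type DEN against untreated (-0.69, then 0.08) and Prox1 in N750F against untreated (0.28, then -0.09). In batch 1 alone 15 changed, and with the Y-linked covariate 17. Counts of called members depended on the settings as follows. For N750F against wild type DEN (2 called), 1 was called, Onecut1 each time, without quantile normalization, with offset 1, without the filter, without the batch term, with Y-linked level as a covariate, with array weights and with only the 2 groups compared, and 0 in batch 1 alone; omissions gave 0 to 2. For N750F against untreated (2), 0 were called without quantile normalization, with median scaling, with offset 1 or without batch, 1 with the Y-linked covariate, 4 with offset 50 or without both knockout-labelled arrays and 5 with array weights; omissions gave 0 to 4. For wild type DEN against untreated (1), 0 were called without quantile normalization, with median scaling, offset 1, no batch, batch 1 alone, the Y-linked covariate, array weights or only these groups; omissions gave 0 to 1. Heterozygous against untreated (0) gave 1, Foxa2, with offset 50, the filter at the median level, array weights or without the knockout-labelled arrays; omissions gave 0 to 1. N750F against knockout-labelled (0) gave 0 to 2 on omissions, with Foxa3 and Cebpb called without knockout-labelled array 1. The F test (2) gave 1 without quantile normalization or batch and 0 in batch 1 alone; omissions gave 1 to 4. The other 5 comparisons had 0 called members throughout.

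With the replicate block in place of batch, 0 members were called in each comparison and in the F test, and Onecut1 in N750F against wild type DEN was -2.04 (adjusted p = 0.0512). The crossed replicate block, added after seeing the data for knockout-labelled against untreated, also gave 0. Restricting the fit to only the groups compared was added likewise. Batch 1 alone and single omissions leave some groups with 1 array, which is then assumed to vary like the others. Among the called differences, Foxa2 in N750F against untreated passed in 9 of 14 settings and 8 of 13 omissions, Onecut1 there in 8 and 6, and Foxa2 in wild type DEN against untreated in 5 and 5. The causes of these shifts were not tested. Groups of 2 arrays limit all comparisons, and sex and Cre follow the groups.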

Other observations

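Markers of other liver cells were read beside the 9 factors. The 9 stellate cell genes averaged 8.53 to 8.85 in N750F and 7.88 and 8.32 in wild type DEN livers. Of the 9, 1 was called higher in N750F, where 1.42% of all genes were called. The 7 measured red cell genes averaged 7.02 to 7.22 in N750F and 6.79 and 6.87 in wild type DEN livers, with 0 of 6 tested called. The 7 measured lymphocyte genes averaged 5.93 to 6.07 in N750F and 5.91 and 5.97 in wild type DEN livers, near the filter level.

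The 8 measured genes of the fetal liver averaged 8.16 to 8.81 in N750F livers, 8.49 and 8.09 in knockout-labelled, 6.94 and 7.11 in heterozygous, 6.92 and 7.26 in wild type DEN and 8.73 and 8.89 in untreated livers. N750F levels were above both wild type DEN levels. In that comparison 3 of the 8 genes were called higher, where 1.42% of all genes were called, and Onecut1 was lower. Untreated livers, which received no DEN, had high levels of both the fetal genes and Onecut1 (8.37 and 8.71). Whether the fetal genes and Onecut1 are linked was not tested.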
